A study of Mus musculus with 4 samples.

Results

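The S100 calcium-binding proteins were followed through 9 genes, S100a1, S100a4, S100a6, S100a8, S100a9, S100a10, S100a11, S100a13 and S100a16, chosen by symbol from the 32285 genes of the count tables. S100 proteins are small proteins with paired EF-hand calcium-binding loops. On calcium binding most of them open a hydrophobic face and dock to target proteins such as annexins, and several are also secreted and bind the receptors TLR4 and RAGE. In tumours S100A8 and S100A9, which pair as calprotectin, are abundant in the cytosol of neutrophils and monocytes, while S100A4, S100A6, S100A10 and S100A11 are common in carcinoma cells and stroma.

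The tumours were grown from KPC46, a single mouse pancreatic ductal adenocarcinoma organoid line, in B6/129 F1J mice. The 2 vehicle tumours came from mice given Cremophor, and the 2 TAK-981 tumours came from mice given TAK-981 (subasumstat), which blocks the E1 enzyme that starts SUMOylation. Dose, time of harvest, age and tumour site were not given in the sources used here, and each library came from 1 mouse, so n = 2 per group. The comparison asks how blocking SUMOylation changes the cells of the tumour. Dead cells were removed from suspensions of low viability, and which libraries this concerned was not given.

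Unique molecular identifiers (UMIs, counts of captured RNA molecules) numbered 24411656 to 63898758 per library, and 2214 to 4408 cells per library were kept. The median depth per cell was 2269 and 4152.5 UMIs in vehicle libraries but 5024.5 and 12831 in the treated ones, and the median mitochondrial share of UMIs was 2.93 and 2.71% against 6.90 and 5.11%. Depth and mitochondrial share therefore followed the groups, and their part in the results was not tested. Between 1 and 10 cell barcodes were shared by any pair of libraries. Cells were clustered without S100 genes and named from marker genes, which gave 7 classes that reached 15 cells in each library: neutrophil-like, macrophage or monocyte-like, dendritic-like, T or NK-like, epithelial-like, fibroblast-like and endothelial-like. The suffix is dropped below. The summed level of the 10 epithelial markers was 3902 to 5323 CPM in the epithelial class (UMIs of the gene scaled to a total of 1e6 UMIs of the class). Among the other classes it was highest in endothelial cells of TAK-981 1, at 1918 CPM, against 51.3 and 237 CPM in vehicle and 137 CPM in TAK-981 2. Clusters of the epithelial class had 4 to 7 of the 10 markers in at least 10% of cells, and cluster 8, of 30 cells, had all 10.

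All 9 genes lie on mouse chromosome 3 (GRCm38, GENCODE vM21), between positions 90511034 and 93564643. S100a1 (ENSMUSG00000044080, 90511034 to 90514392, minus strand) and S100a13 (ENSMUSG00000042312, 90514435 to 90524581, plus strand) are neighbours that point away from each other. S100a16 (ENSMUSG00000074457) spans 90537254 to 90543151, S100a4 (ENSMUSG00000001020) 90603771 to 90606045 and S100a6 (ENSMUSG00000001025) 90612882 to 90624181, each on the plus strand. S100a8 (ENSMUSG00000056054, plus strand) spans 90668978 to 90670035, and S100a9 (ENSMUSG00000056071, minus strand) 90692632 to 90695721. S100a11 (ENSMUSG00000027907, 93520488 to 93526287) and S100a10 (ENSMUSG00000041959, 93555080 to 93564643) lie apart from the others, on the plus strand. S100a4 overlaps Gm42674, a protein-coding gene on the same strand, so its counts are uncertain wherever reads could belong to either.

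The promoters of the 4 genes with the largest differences in the whole tumour are shown so that the calprotectin pair can be set beside S100a4 and S100a6. Each is the 250 bases before the RefSeq start (GRCm38.p6), 5′ to 3′ on the gene's own strand, and capitals mark motif matches. The windows are chr3:90668821-90669070 (plus) for S100a8, chr3:90695722-90695971 (minus) for S100a9, chr3:90603520-90603769 (plus) for S100a4 and chr3:90612644-90612893 (plus) for S100a6.
S100a8: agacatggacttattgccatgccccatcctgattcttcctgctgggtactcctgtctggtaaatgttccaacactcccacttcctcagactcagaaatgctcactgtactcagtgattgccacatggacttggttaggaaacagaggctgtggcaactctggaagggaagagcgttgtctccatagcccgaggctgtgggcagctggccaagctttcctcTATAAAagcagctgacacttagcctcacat
S100a9: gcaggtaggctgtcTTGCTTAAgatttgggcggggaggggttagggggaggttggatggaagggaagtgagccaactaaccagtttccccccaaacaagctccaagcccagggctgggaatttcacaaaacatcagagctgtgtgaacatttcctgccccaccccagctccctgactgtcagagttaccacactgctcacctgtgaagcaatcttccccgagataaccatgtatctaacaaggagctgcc
S100a4: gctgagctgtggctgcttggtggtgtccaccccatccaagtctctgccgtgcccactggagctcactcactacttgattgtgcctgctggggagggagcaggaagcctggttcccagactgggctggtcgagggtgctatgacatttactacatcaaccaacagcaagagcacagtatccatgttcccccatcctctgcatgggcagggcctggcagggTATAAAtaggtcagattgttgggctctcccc
S100a6: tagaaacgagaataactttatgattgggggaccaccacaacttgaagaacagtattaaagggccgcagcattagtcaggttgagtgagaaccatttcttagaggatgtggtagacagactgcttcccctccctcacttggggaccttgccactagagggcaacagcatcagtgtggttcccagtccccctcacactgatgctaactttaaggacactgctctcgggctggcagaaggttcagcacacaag
The motifs searched, on both strands, were TATAAA (the TATA box), TTGCNNAA (bound by C/EBP factors, which act in myeloid cells) and TGANTCA (bound by AP-1). They occur in 12.4, 9.6 and 6.7% of 32851 mouse promoter windows of this length. S100a8 and S100a4 had TATAAA at 30 and 31 bases before the start, S100a9 had TTGCTTAA at 236 bases before it, and S100a6 had no match to the 3 motifs. S100a11, not shown, had TGAGTCA at 136 and 38 bases before its start. The S100a16 window chr3:90540896-90541145 had TGAATCA at 192 bases before the start. The other S100a16 window, S100a1 and S100a13 had no match to the 3 motifs. Of the 9 genes 8 were in the table of promoters, the other being S100a10.

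In vehicle tumours the 9 genes divided by cell class. S100a8 and S100a9 were neutrophil transcripts, at 29750 and 23010 CPM for S100a8 and 39990 and 29250 CPM for S100a9 in vehicle neutrophils. S100a6, also called calcyclin, was highest in epithelial cells, at 15570 and 20870 CPM, followed by fibroblasts at 7007 and 9912 CPM. S100a4, known as metastasin, was highest in dendritic cells, at 2465 and 2789 CPM, and the epithelial values of 1008 and 1485 CPM overlapped those of T or NK cells, 1193 and 1110 CPM. S100a10, which pairs with annexin A2 at membranes, was highest in epithelium at 1876 and 2253 CPM, and its T or NK values of 1589 and 1303 CPM came next. S100a11, an annexin A1 partner, spanned 548 to 2153 CPM over the 7 classes, and epithelial (2153 and 1959 CPM), neutrophil (2039 and 1541 CPM) and dendritic values (1946 and 1263 CPM) overlapped.

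The other 3 members were scarcer. S100a13, which takes part in the release of FGF1, had 458 and 354 CPM in vehicle fibroblasts, 434 and 447 CPM in endothelial cells and 75.7 and 82.2 CPM in neutrophils. S100a1, best known as a regulator of calcium cycling in muscle, was highest in fibroblasts at 301 and 209 CPM. S100a16 was a stromal and epithelial transcript. It had 372 and 213 CPM in fibroblasts, 312 and 357 CPM in endothelial cells and 47.6 and 69.7 CPM in epithelium, and 0 UMIs in dendritic cells of all 4 libraries. B cells, abundant only in vehicle 1, had 362 CPM of S100a6, 34.3 CPM of S100a4 and 0 UMIs of S100a16.

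**Figure D1:**
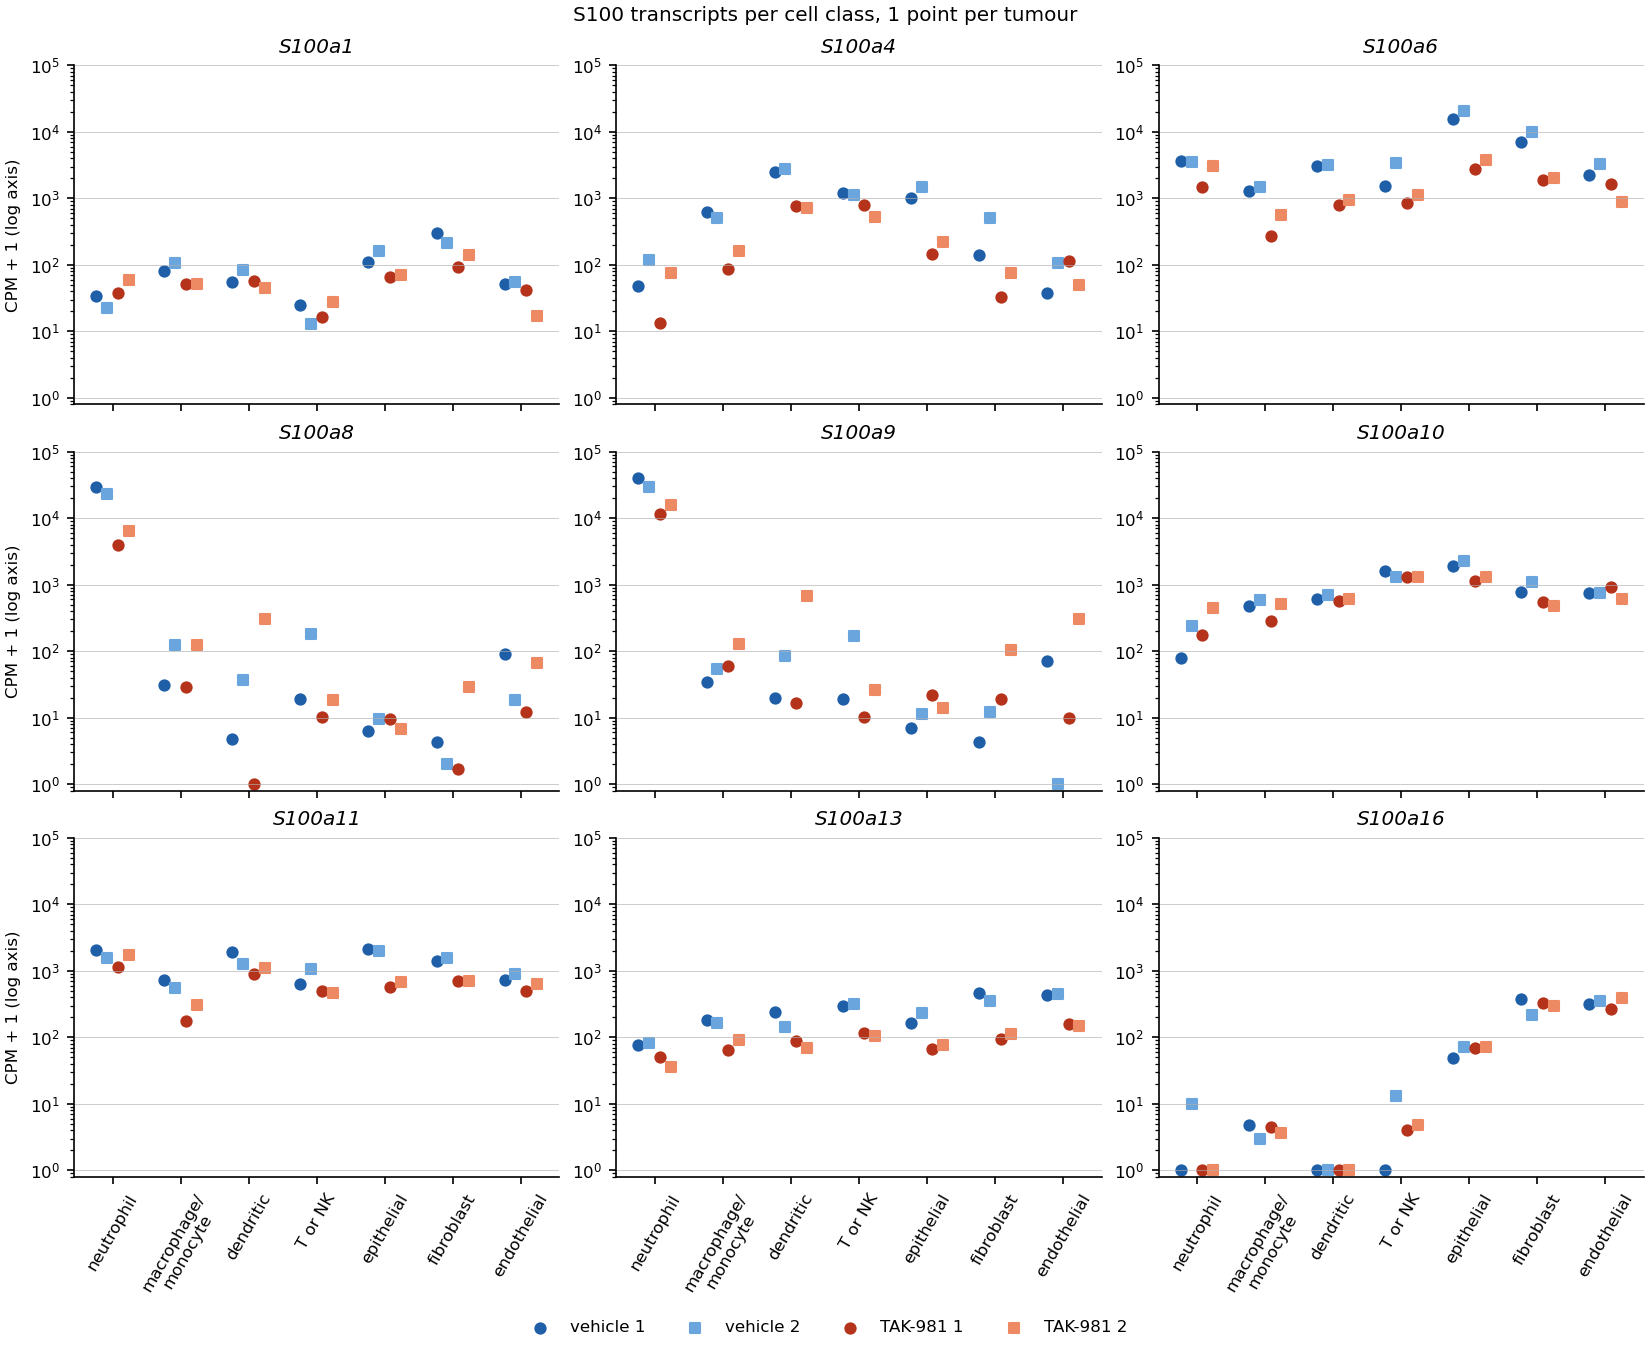
Level of each S100 transcript (CPM + 1, log axis) in each cell class, with 1 point per tumour (blue vehicle, red TAK-981). S100a8 and S100a9 stand highest in neutrophils, S100a6 in epithelium, and S100a16 is near 0 in dendritic cells and neutrophils.

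Epithelial cells, the tumour compartment, held the largest number of called differences. Of the 9 members 4 fell under TAK-981 and 0 rose, against 0.549% of genes called higher (edgeR quasi-likelihood test with Benjamini-Hochberg adjustment over 12741 genes), where 2.24% of all genes were called and 1.7% were called lower. The member median log2 fold change was -1.02, against 0.01 over all genes. Vehicle and TAK-981 libraries were fully separate for 7 of the 9 members, against 53.7% of all genes.

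S100a4, associated with motility and metastasis, had 1008 and 1485 CPM in vehicle epithelium against 143 and 218 CPM under TAK-981. Both TAK-981 tumours lay far below both vehicle tumours, and the fall was -2.79 ± 0.33 on the log2 scale (SE, n = 2 per group, edgeR adjusted p = 0.0192). S100a6 went from 15570 and 20870 CPM to 2711 and 3731 CPM, with no overlap (-2.50 ± 0.29 SE, edgeR adjusted p = 0.0192). The vehicle mean was 6.91 times the TAK-981 mean for S100a4 and 5.66 times for S100a6. S100a11 had 2153 and 1959 CPM in vehicle against 577 and 686 CPM under TAK-981 (-1.70 ± 0.23 SE, edgeR adjusted p = 0.0253). S100a13 had 163 and 234 CPM in vehicle against 64.9 and 77.1 CPM under TAK-981 (-1.49 ± 0.26 SE, edgeR adjusted p = 0.0486). The groups were separate for both, and S100a13 was the call nearest to the threshold. Leaving out 1 library ended some of these calls. The adjusted p of S100a11 was 0.0526 without vehicle 1 and 0.0650 without vehicle 2, and that of S100a13 was 0.134 without vehicle 2, 0.132 without TAK-981 1 and 0.058 without TAK-981 2, while S100a4 and S100a6 stayed below 0.05 whichever library was left out.

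The other 5 members were not called in epithelium. S100a10 had 1876 and 2253 CPM in vehicle against 1112 and 1321 CPM under TAK-981 (-0.76 ± 0.23 SE, edgeR adjusted p = 0.137), and S100a1 had 111 and 159 CPM against 63.6 and 69.5 CPM (-1.02 ± 0.25 SE, edgeR adjusted p = 0.0927). Neither gene had overlapping libraries. S100a16 had 47.6 and 69.7 CPM in vehicle against 67.1 and 70.4 CPM under TAK-981, which overlapped, while on plain class totals it had 40.0 and 57.8 CPM against 82.2 and 82.3 CPM. S100a8 and S100a9 were near 0 in epithelium, at 5.30 to 20.5 CPM in all libraries.

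Equal depth gave the same order. After each cell was thinned to 500 UMIs, S100a4 was found in 28.2 and 34.5% of vehicle epithelial cells and in 7.61 and 10.6% of TAK-981 epithelial cells. At full depth the shares were 75.3, 81.5, 44.0 and 63.0%, at a median depth per cell of 11696 and 8671 UMIs in vehicle libraries but 12519 and 20219.5 in the treated ones. S100a6 was found in 98.4 and 98.5% of thinned vehicle cells and in 77.5 and 82.8% of thinned TAK-981 cells. In neutrophils, which lack S100a4 almost entirely, the thinned share of cells with a UMI was 0 to 4.58% in the 4 libraries. For both genes the TAK-981 shares in epithelium were below both vehicle shares.

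Several epithelial clusters were uneven between libraries. Cluster 3 held 55.0% of vehicle 1 epithelial cells and cluster 5 held 66.3% of those of vehicle 2, while cluster 19 held 35.2% of TAK-981 1 and cluster 7 held 46.9% of TAK-981 2 epithelial cells. Cluster 6 held 33.7 and 23.1% in vehicle libraries and 36.7 and 12.8% in treated ones. The 4 members that fell were therefore also compared within single clusters, in fits chosen after the data had been seen. In each of the 4 epithelial clusters with at least 15 cells in every library (3, 5, 6 and 7), S100a4, S100a6, S100a11 and S100a13 were all lower in both TAK-981 libraries than in both vehicle libraries. In cluster 7, for example, S100a6 was at 13200 and 15300 CPM in vehicle against 3310 and 4220 CPM under TAK-981 (-2.12 ± 0.31 SE, edgeR adjusted p = 0.00348). The vehicle values of cluster 7 rest on few cells, 21 in vehicle 1 and 22 in vehicle 2. TAK-981 1 had 152 cells there and TAK-981 2 had 931. Cluster 5 was in turn small in TAK-981 1, at 20 cells. S100a4 was called in all 4 clusters and S100a6 in clusters 3, 5 and 7. Cluster 6, which held at least 254 cells in every library at a median of 1448 UMIs per cell, gave the smallest differences of the 4 for both genes. There S100a4 had 620 and 964 CPM in vehicle against 284 and 288 CPM under TAK-981 (-1.76 ± 0.39 SE, edgeR adjusted p = 0.0369), and 1 of 7 members was called, against 2.05% of genes. The other 3 clusters had 7 of 9, 3 of 7 and 4 of 9 members called, against 8.93, 6.18 and 1.87% of genes.

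**Figure D2:**
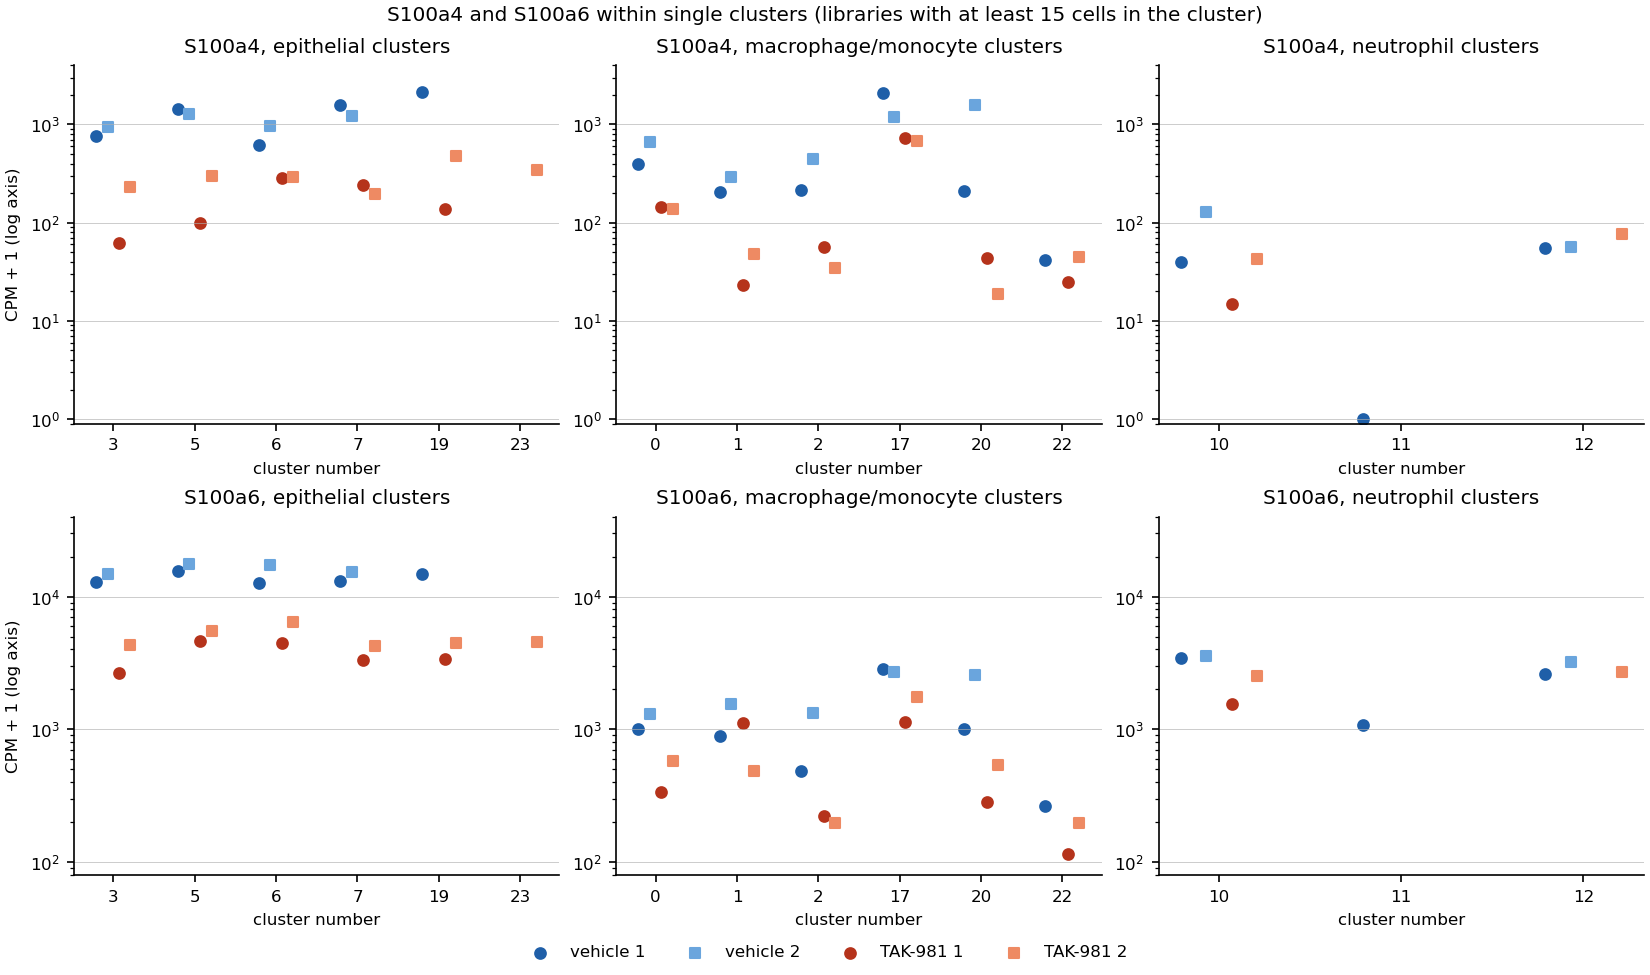
Level of S100a4 (top) and S100a6 (bottom), as CPM + 1 on a log axis, in single clusters of the epithelial, macrophage or monocyte and neutrophil classes, with 1 point per library that held at least 15 cells of the cluster. In epithelial clusters 3, 5, 6 and 7 both TAK-981 libraries (red) lie below both vehicle libraries (blue).

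Markers of several other cells moved with the groups in the epithelial class, although no single macrophage, acinar, neutrophil or erythroid marker was called by edgeR. The 12 macrophage markers, all detected, summed to 80.9 and 72.2 CPM in vehicle epithelium against 605 and 133 CPM under TAK-981, and the 11 acinar markers to 21.95 and 0.963 CPM against 155 and 64.7 CPM. The 10 neutrophil markers summed to 14.6 and 8.83 CPM against 64.8 and 28.1 CPM. The 6 erythroid markers were lower under TAK-981, at 74.9 and 139 CPM against 39.1 and 0.151 CPM. The part of these cells in the results was not tested.

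Dendritic cells were the class with the highest S100a4 level, and 2 of the 7 members tested there fell, against 4.56% of all genes called and 4.06% called lower. S100a4 had 2465 and 2789 CPM in vehicle against 760 and 723 CPM under TAK-981 (-1.82 ± 0.24 SE, edgeR adjusted p = 0.00755). S100a6 had 3100 and 3206 CPM in vehicle against 796 and 951 CPM under TAK-981 (-1.85 ± 0.24 SE, edgeR adjusted p = 0.00755). The groups were well separated for both genes. Libraries did not overlap for 5 of the 7 members, against 45.7% of genes, and for 3 of 7 on plain class totals, against 50.8%. With the replicate number as a block the adjusted p was 0.0513 for S100a4 and 0.0506 for S100a6. The class held 235 and 35 vehicle cells but only 29 and 27 TAK-981 cells. It was also mixed: the 6 mast cell markers summed to 517 and 0 CPM in vehicle against 0 and 868 CPM under TAK-981, and the 6 plasmacytoid markers to 804 and 965 CPM against 139 and 466 CPM. The 12 macrophage markers summed to 1393 and 1251 CPM against 3060 and 2304 CPM, and 1 of 9 tested rose. The 11 acinar markers summed to 18.5 and 0 CPM against 431 and 204 CPM. Epithelial cells had the highest S100a6 level, and their 10 markers summed to 3902 to 5323 CPM in their own class. In dendritic cells these 10 summed to 243 and 453 CPM in vehicle against 416 and 257 CPM under TAK-981, which overlapped. The part of these cells in the results was not tested.

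In fibroblasts S100a13 fell, from 458 and 354 CPM in vehicle to 93.3 and 110 CPM under TAK-981 (-1.99 ± 0.31 SE, edgeR adjusted p = 0.0291). It was the 1 call among 8 members tested, against 1.01% of all genes and 0.738% called lower, and without TAK-981 1 its adjusted p was 0.0967. S100a6 had 7007 and 9912 CPM in vehicle fibroblasts against 1905 and 2039 CPM under TAK-981 (-2.10 ± 0.42 SE, edgeR adjusted p = 0.0531). S100a4, a gene often used to mark fibroblasts, had 141 and 504 CPM against 31.8 and 74.96 CPM (-2.60 ± 0.60 SE, edgeR adjusted p = 0.0983). Libraries did not overlap for 7 of the 8 members, where 40.7% of all genes had none. S100a16 was the exception, with 372 and 213 CPM in vehicle against 327 and 295 CPM under TAK-981. The 12 macrophage markers summed to 121 and 126 CPM in vehicle fibroblasts against 1130 and 324 CPM under TAK-981, and 3 of them rose. The 11 acinar markers summed to 19.7 and 1.00 CPM against 252 and 155 CPM, and 2 rose. The 6 mesothelial markers summed to 385 and 248 CPM against 74.6 and 128 CPM, and 3 fell. The 10 epithelial markers summed to 142 and 990 CPM against 617 and 256 CPM, which overlapped. The part of these cells in the results was not tested.

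Macrophages and monocytes had no member past the threshold in edgeR, among 9 tested, where 0.131% of genes were called. At an unadjusted p under 0.05 there were 6 members, against 13.7% of genes, and DESeq2 called 4, against 2.56% of genes. Libraries did not overlap for 6 members, against 46.3% of genes. S100a4 came closest. It had 631 and 501 CPM in vehicle against 85.2 and 159 CPM under TAK-981 (-2.22 ± 0.35 SE, edgeR adjusted p = 0.0578). S100a6 had 1284 and 1490 CPM against 271 and 563 CPM (-1.74 ± 0.38 SE, edgeR adjusted p = 0.118), and S100a11 had 720 and 548 CPM against 173 and 306 CPM (-1.40 ± 0.33 SE, edgeR adjusted p = 0.140). S100a13 had 179 and 166 CPM against 63.2 and 89.6 CPM (-1.18 ± 0.24 SE, edgeR adjusted p = 0.101). None of these genes had overlapping libraries. The 11 acinar markers summed to 34.0 and 0.387 CPM in vehicle macrophages against 470 and 185 CPM under TAK-981, and 1 rose. The part of acinar RNA in the macrophage values was not tested.

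Within this class the S100 genes varied with the kind of cell. Cluster 17, led by the monocyte genes Ccr2 and Ly6c2, had a high S100a4 level, 2110 and 1190 CPM in vehicle against 731 and 675 CPM under TAK-981. Cluster 22, led by the complement genes C1qa, C1qb and C1qc, had a low one, 41.1 CPM in vehicle 1, and under TAK-981 it had 23.9 and 43.9 CPM. Cluster 22 held 3.89 and 0.97% of vehicle macrophages and 37.0 and 29.3% of TAK-981 macrophages, and the part of this makeup in the class values was not tested. In single clusters, again chosen after the data had been seen, S100a4 fell in clusters 0, 1, 17 and 20. In the monocyte cluster 17 the fall was -1.45 ± 0.35 (SE, edgeR adjusted p = 0.0105), and 3 of 8 members were called, against 5.88% of genes. Vehicle 2 had 20 cells in that cluster. In cluster 0, led by Arg1 and Ccl24, S100a4 had 399 and 660 CPM in vehicle against 143 and 137 CPM under TAK-981 (-2.03 ± 0.29 SE, edgeR adjusted p = 0.00322), and 3 of 8 members were called, against 2.33% of genes. Clusters 1 and 20 had 1 of 8 and 2 of 6 members called, against 2.3 and 5.02% of genes. In cluster 2, which held 71.8% of the macrophages of vehicle 2 and where 0% of genes were called, S100a4 had 212 and 446 CPM in vehicle against 55.8 and 33.4 CPM under TAK-981 (-3.14 ± 0.50 SE, edgeR adjusted p = 0.0533).

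T or NK cells had 5 members with enough counts, and edgeR called 0 of them, against 0.318% of genes. At an unadjusted p under 0.05 there were 4, against 13.2% of genes, and DESeq2 called 0, against 1.1% of genes. Libraries did not overlap for any of the 5, where 45% of genes had no overlap, but this depended on the scaling. On plain class totals S100a10 had 1240 and 1110 CPM in vehicle against 1330 and 1250 CPM under TAK-981, and S100a11 overlapped, at 496 and 917 CPM against 523 and 451 CPM. S100a13 had 295 and 314 CPM in vehicle against 117 and 105 CPM under TAK-981 (-1.46 ± 0.33 SE, edgeR adjusted p = 0.0833), and S100a4 had 1193 and 1110 CPM against 798 and 526 CPM (-0.80 ± 0.34 SE, edgeR adjusted p = 0.332). In endothelial cells edgeR called 0 of 9 members, against 1.82% of genes, with 2 at an unadjusted p under 0.05, against 16.2% of genes, and 0 by DESeq2, against 2.33%. There was no overlap of libraries for 4 members, against 46.1% of genes. S100a13 again came closest, at 434 and 447 CPM in vehicle against 158 and 146 CPM under TAK-981 (-1.52 ± 0.34 SE, edgeR adjusted p = 0.0536). The S100a4 values overlapped there, at 37.3 and 107 CPM in vehicle against 113 and 48.5 CPM under TAK-981. TAK-981 2 had 15 endothelial cells. The 10 epithelial markers summed to 177 and 784 CPM in vehicle T or NK cells against 1448 and 398 CPM under TAK-981. In endothelial cells they summed to 51.3 and 237 CPM against 1918 and 137 CPM, and both classes overlapped. The 11 acinar markers summed to 136 and 0 CPM against 1215 and 480 CPM in T or NK cells. In endothelial cells these summed to 18.6 and 0 CPM against 638 and 154 CPM, and 1 rose. The part of these cells in the results was not tested.

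For S100a13 and S100a6 both TAK-981 libraries were below both vehicle libraries in all 7 classes, although edgeR called each in 2 of them. Within a class 40.7 to 53.7% of all genes had no overlap in either direction. Among genes with a longest transcript under 800 nt, as both have, the share was 58.9 to 78.6%. How many genes were lower in all 7 classes was not counted. The S100a13 values rest on few UMIs in some classes. Neutrophils had 37 and 27 of its UMIs in vehicle against 4 and 6 under TAK-981. Dendritic cells had 129 and 12 against 17 and 14, and endothelial cells of TAK-981 2 had 18. CPM values of a class are scaled by TMM, which assumes that most genes do not change, and on plain class totals the median gene shifted by 0.02 to 0.448 (log2) over the 7 classes. S100a13 and S100a6 were still lower in all 7 on that scale, chosen after the data had been seen. The members without overlap then numbered 5 of 7 in neutrophils, 6 of 9 in macrophages, 3 of 7 in dendritic cells, 4 of 5 in T or NK cells, 8 of 9 in epithelium, 7 of 8 in fibroblasts and 3 of 9 in endothelial cells, against 43.0 to 69.0% of genes. Whether the effect on any member differed between classes was tested directly for 5 pairs of classes, of which neutrophil with epithelial and neutrophil with fibroblast were added after the data had been seen. The edgeR interaction test called 0 of 44 member tests over the 5 pairs, where 0.121 to 0.739% of genes were called, and 14 had an unadjusted p under 0.05, where 6.03 to 12.1% of genes did. Those 14 were 5 of 8, 5 of 9 and 4 of 9 members in the pairs of neutrophils with macrophages, epithelium and fibroblasts. DESeq2 was not run on interactions. For S100a4 the effect in macrophages was higher than in epithelium by 0.39 ± 0.34 (SE) on the log2 scale (edgeR adjusted p = 0.681), and in fibroblasts by 0.25 ± 0.43 (SE, edgeR adjusted p = 0.941). The classes of 1 tumour share its library and are not independent of each other.

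**Figure D3:**
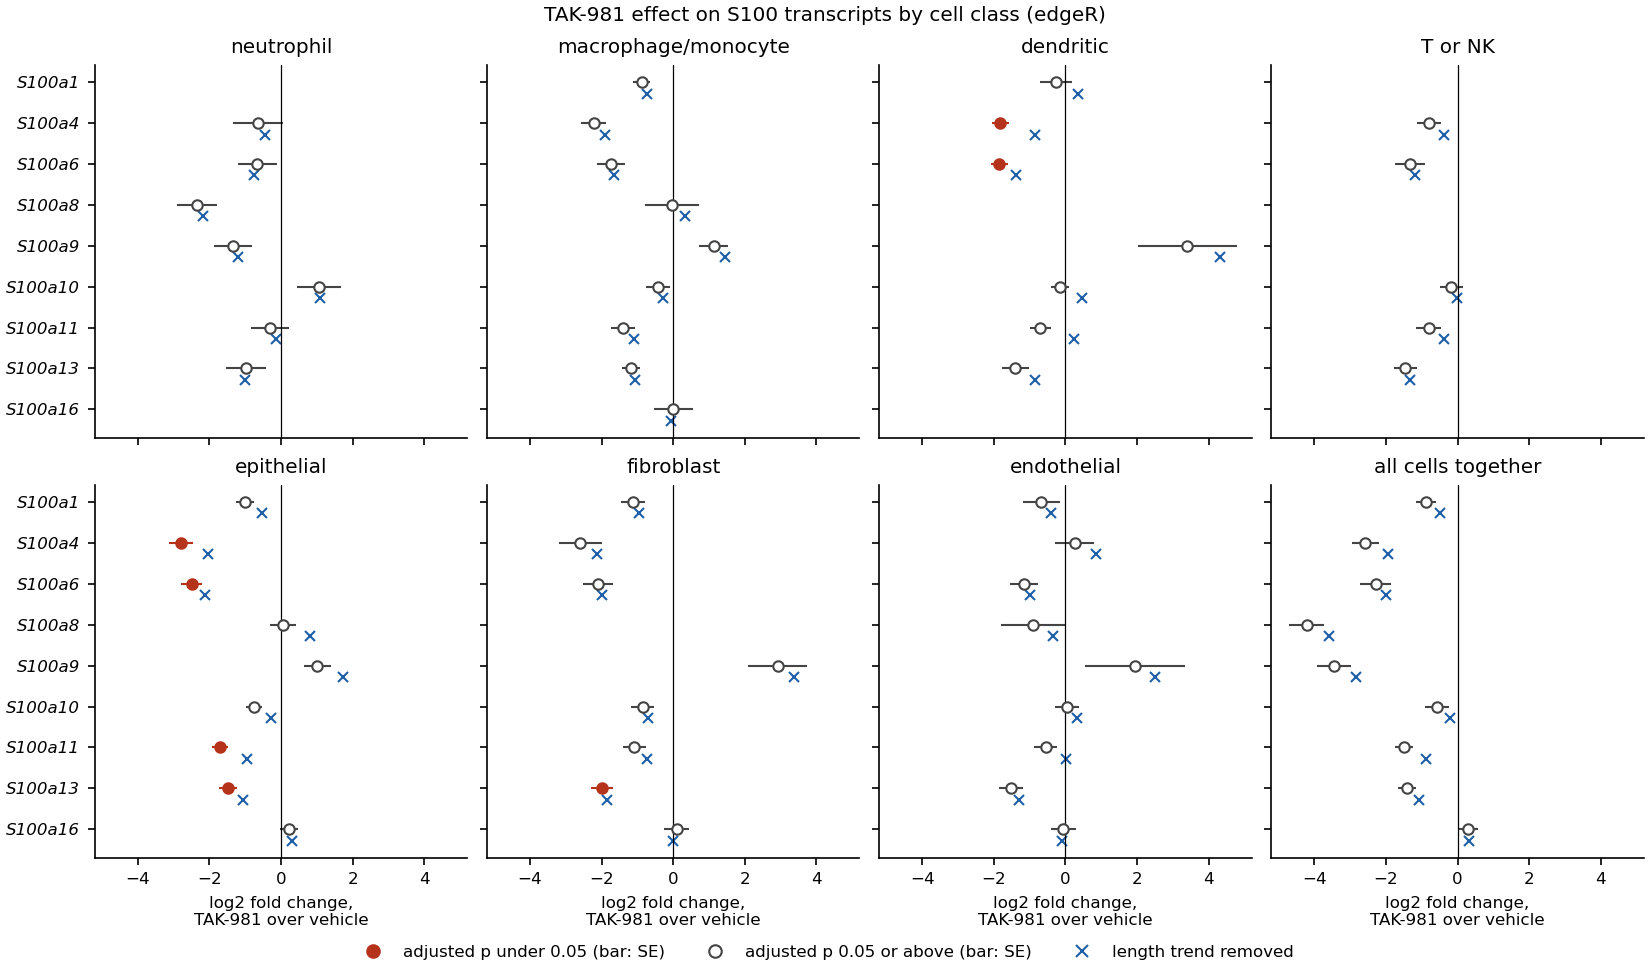
Log2 fold change of each member, TAK-981 over vehicle, in each class and in all cells together, with its SE as a bar (n = 2 tumours per group). Filled red points passed the edgeR threshold, and blue crosses give the value after the trend with transcript length was removed. S100a16 lies near 0 in every class in which it was tested.

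S100a8 and S100a9 differed most in the whole tumour. Over all cells S100a8 had 732 and 348 CPM in vehicle against 22.7 and 35.2 CPM under TAK-981 (-4.22 ± 0.49 SE, edgeR adjusted p = 0.114). S100a9 had 980 and 430 CPM against 59.4 and 69.5 CPM (-3.45 ± 0.47 SE, edgeR adjusted p = 0.121). The vehicle means were 18.6 and 10.9 times the TAK-981 means. EdgeR called 0 of 9 members and 0% of all 14485 genes in the summed tumours. At an unadjusted p under 0.05 it gave 7 members and 14.5% of genes, and DESeq2 called 6 members and 5.36% of genes. No overlap was seen for 8 members, against 47.8% of genes. In such sums fewer cells of a type and less RNA per cell cannot be told apart.

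Neutrophils held most of these molecules in vehicle tumours. Their share of S100a8 UMIs was 98.5 and 93.8% in vehicle and 48.3% in both TAK-981 libraries. The mean was 96.1% ± 3.32 against 48.3% ± 0.0358 (SD, n = 2 per group, exact two-sided permutation p = 0.333, the smallest that 2 against 2 tumours can give). Their share of S100a9 UMIs was 97.5% ± 1.66 in vehicle tumours, against 56.7% ± 3.04 in treated ones (SD, n = 2, exact permutation p = 0.333). Macrophages and epithelial cells held most of the rest under TAK-981. Epithelium had 26.1 and 14.8% of the S100a8 UMIs there. With at least 1000 UMIs per cell the difference in the S100a8 share was -23.5 percentage points in place of -47.8.

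**Figure D4:**
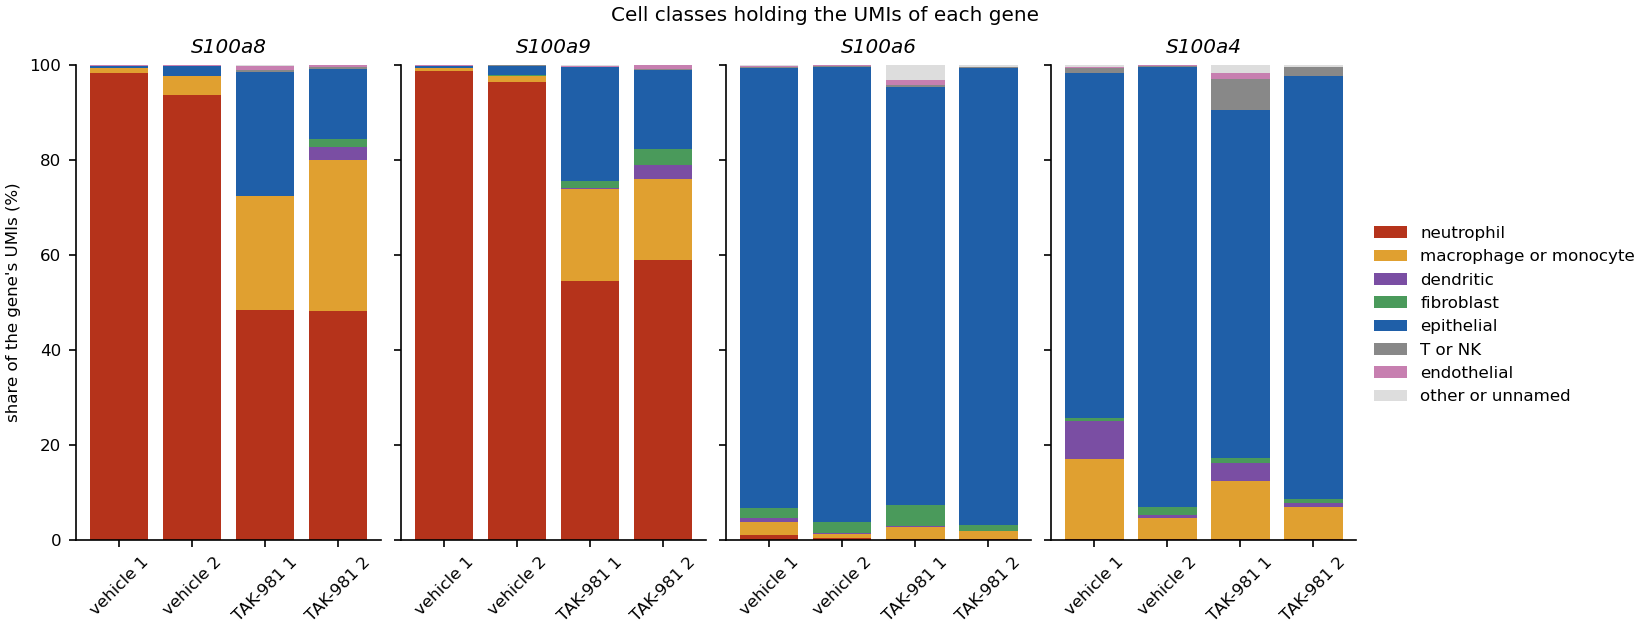
Share of the UMIs of S100a8, S100a9, S100a6 and S100a4 (%) held by each cell class in each library, as stacked bars. Neutrophils hold over 93% of S100a8 UMIs in vehicle and 48.3% under TAK-981, while epithelium holds most of the S100a6 and S100a4 UMIs in every library.

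The libraries held 757 and 459 neutrophils in vehicle against 46 and 105 under TAK-981, and gave 2.67 and 1.22% of all UMIs in vehicle but 0.329 and 0.338% under TAK-981. Within neutrophils S100a8 had 29750 and 23010 CPM in vehicle against 3913 and 6485 CPM under TAK-981 (-2.34 ± 0.56 SE, edgeR adjusted p = 0.0876). S100a9 had 39990 and 29250 CPM against 11560 and 15610 CPM (-1.35 ± 0.54 SE, edgeR adjusted p = 0.309). The libraries did not overlap for either gene, and edgeR called 0 of the 7 members tested, against 0.794% of genes. At an unadjusted p under 0.05 there were 2 members, against 12.8% of genes, and DESeq2 called 1, S100a8, against 1.42% of genes. Libraries did not overlap for 4 members, against 44.7% of genes.

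A small cluster bore on the vehicle 1 value. Cluster 11, led by the granule genes Camp, Ngp and Ltf, held 21 cells of vehicle 1, 1 cell of vehicle 2 and none of the TAK-981 libraries. The cells of vehicle 1 had 132000 CPM of S100a8 and 152000 CPM of S100a9, and gave 60.7% of the S100a8 and 52.0% of the S100a9 UMIs of vehicle 1 neutrophils. Cluster 10, the one neutrophil cluster with at least 15 cells in every library, had 11300 and 25100 CPM of S100a8 in vehicle against 3620 and 8690 CPM under TAK-981 (-1.502 ± 0.66 SE, edgeR adjusted p = 0.350). Its libraries did not overlap, and 0.989% of genes were called there.

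Thinned to 500 UMIs, S100a8 was found in 65.5 and 80.4% of vehicle neutrophils and 56.5 and 50.5% of TAK-981 neutrophils. S100a9 was found in 69.4 and 83.2% against 69.6 and 67.6%, which overlapped. These cells held a median of 666 and 623 UMIs in vehicle libraries but 1615.5 and 1438 in the treated ones. The 11 acinar markers summed to 166 and 36.6 CPM in vehicle neutrophils against 5955 and 943 CPM under TAK-981, and 3 of them rose. The part of acinar RNA in the neutrophil values was not tested.

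The balance of the calprotectin pair also differed between the groups. There were 1.34 and 1.27 S100a9 UMIs for each S100a8 UMI in vehicle neutrophils and 2.95 and 2.41 under TAK-981. S100a9 thus made up 57.3% (exact 95% interval 56.8 to 57.9) and 56.0% (55.2 to 56.7) of the pair in vehicle and 74.7% (72.2 to 77.1) and 70.7% (69.2 to 72.1) under TAK-981. The intervals cover counting error only. The 4 libraries did not overlap between groups, and no p below 0.333 is possible with 2 against 2.

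Outside neutrophils the pair was scarce, and S100a9 had higher TAK-981 values in several classes without a call. In macrophages S100a9 had 33.4 and 53.0 CPM in vehicle against 59.0 and 128 CPM under TAK-981 (1.13 ± 0.40 SE, edgeR adjusted p = 0.283), while S100a8 overlapped, with 30.4 and 124 CPM against 27.9 and 121 CPM. In fibroblasts S100a9 had 3.27 and 11.03 CPM against 18.0 and 101 CPM (2.91 ± 0.83 SE, edgeR adjusted p = 0.202), and in epithelium 6.06 and 10.3 CPM against 20.5 and 12.8 CPM (1.02 ± 0.37 SE, edgeR adjusted p = 0.190). Without the removal of doublets the macrophage and epithelial values were -0.42 and -0.35. When epithelial cluster 3 was fitted by itself S100a9 fell (-3.41 ± 0.71 SE, edgeR adjusted p = 0.016), with 5.48 and 10.0 CPM in vehicle, 1.28 CPM in TAK-981 2 and 0 UMIs in TAK-981 1. S100a8 fell there as well (-3.17 ± 0.66 SE, edgeR adjusted p = 0.0152), where 8.93% of genes were called. S100a9 did not overlap between groups in the 4 epithelial clusters with at least 15 cells in every library. It was lower under TAK-981 in 3 of them and higher in 1, unlike the class value. In clusters 5 and 6 its counts were too low for a test. In dendritic cells the libraries overlapped, since TAK-981 2 alone was high for S100a9, at 684 CPM against 15.4 to 83.4 CPM in the other 3.

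Neutrophil markers were set beside these levels. The 10 markers overlapped between groups in macrophages, at 820 and 455 CPM in vehicle against 419 and 1009 CPM under TAK-981. They also overlapped in dendritic cells, at 739 and 930 CPM against 570 and 1712 CPM. In fibroblasts they did not, at 98.2 and 107 CPM against 184 and 307 CPM. In epithelium S100a9 stood at 0.0155 and 0.0296% of the neutrophil level of the same library in vehicle and at 0.217 and 0.112% under TAK-981. The neutrophil genes Csf3r, Cxcr2 and Retnlg together stood at 0.0548 and 0.0156% in vehicle, against 0.293 and 0.186% under TAK-981. The S100a9 to S100a8 ratio in epithelium was 1.14 and 1.22 in vehicle, against 2.39 and 2.21 under TAK-981, so it was higher in the TAK-981 group, as in neutrophils. Thinned to 500 UMIs, at most 0.671% of epithelial cells had an S100a9 UMI in any library. Whether these UMIs came from neutrophil RNA was not tested. In the monocyte cluster 17 S100a9 rose, with 80.6 and 47.8 CPM in vehicle against 95.3 and 615 CPM under treatment (2.08 ± 0.57 SE, edgeR adjusted p = 0.0261), with TAK-981 2 far above the rest and 2 UMIs behind the vehicle 2 value.

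The direct test of S100a9 in neutrophils against macrophages gave a difference in log2 fold change of -2.66 ± 0.74 (SE, edgeR adjusted p = 0.0751), and that of S100a8 gave -2.55 ± 0.72 (SE, edgeR adjusted p = 0.0874). Against fibroblasts the S100a9 difference was -4.15 ± 1.17 (SE, edgeR adjusted p = 0.0600), and against epithelium it was -2.57 ± 1.11 (SE, edgeR adjusted p = 0.476). None of these passed the threshold.

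Short transcripts had lower log2 fold changes than other genes, and 8 of the 9 members have a longest transcript under 800 nt. Their lengths are 498 nt for S100a4 and S100a8, 511 nt for S100a11, 519 nt for S100a9, 677 nt for S100a1, 685 nt for S100a10, 715 nt for S100a13 and 783 nt for S100a6, while S100a16 has 1127 nt. Among the 489 epithelial genes under 800 nt the median log2 fold change was -0.78, and 17.2% were called, 82 of them lower and 2 higher. The same median was -1.03 in dendritic cells, where 33.6% were called, -0.72 in fibroblasts, -0.62 in macrophages and -0.44 in neutrophils, while over all genes of these classes the medians lay between -0.04 and 0.01. S100a16, the longest member, was called in none of the 4 classes in which it was tested, and its libraries overlapped in each, except in epithelium on plain totals.

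The longest annotated length did not order the members among themselves. In epithelium S100a6, the longest of the 8 by annotation, was the second lowest member. Of the 489 short genes 54 lay below it, and 33 lay below S100a4. S100a6 has 4 annotated transcripts, and which of them these cells expressed was not tested. S100a11, with 140 below it, and S100a13, with 164, lay within the middle of the short genes, and S100a10, with 247, at their centre. In fibroblasts 6 of 210 short genes lay below S100a4, 20 below S100a6 and 26 below S100a13. In dendritic cells, where short genes were lowest, 29 of 140 lay below S100a4 and 27 below S100a6. In neutrophils 3 of 141 lay below S100a8 and 22 below S100a9.

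When the trend with transcript length was removed within each library, 1 of the 4 epithelial calls stood. S100a6 then had -2.13 ± 0.31 (SE, edgeR adjusted p = 0.0477) and S100a4 -2.04 ± 0.33 (SE, edgeR adjusted p = 0.0550), while S100a11 had -0.96 and S100a13 -1.05, with 1.07% of genes called. In dendritic cells S100a6 was still called (-1.39 ± 0.23 SE, edgeR adjusted p = 0.0185) and S100a4 was not (-0.84), with 3.62% of genes called. In fibroblasts S100a13 had -1.86 and was not called, and 0% of genes were. For S100a10 and S100a11 in dendritic cells the sign turned, to 0.45 and 0.25. These values use the longest annotated transcript of each gene, 783 nt for S100a6, and a shorter expressed form would change them. The cause of the length trend was not tested, and neither was its part in any member's value.

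**Figure D5:**
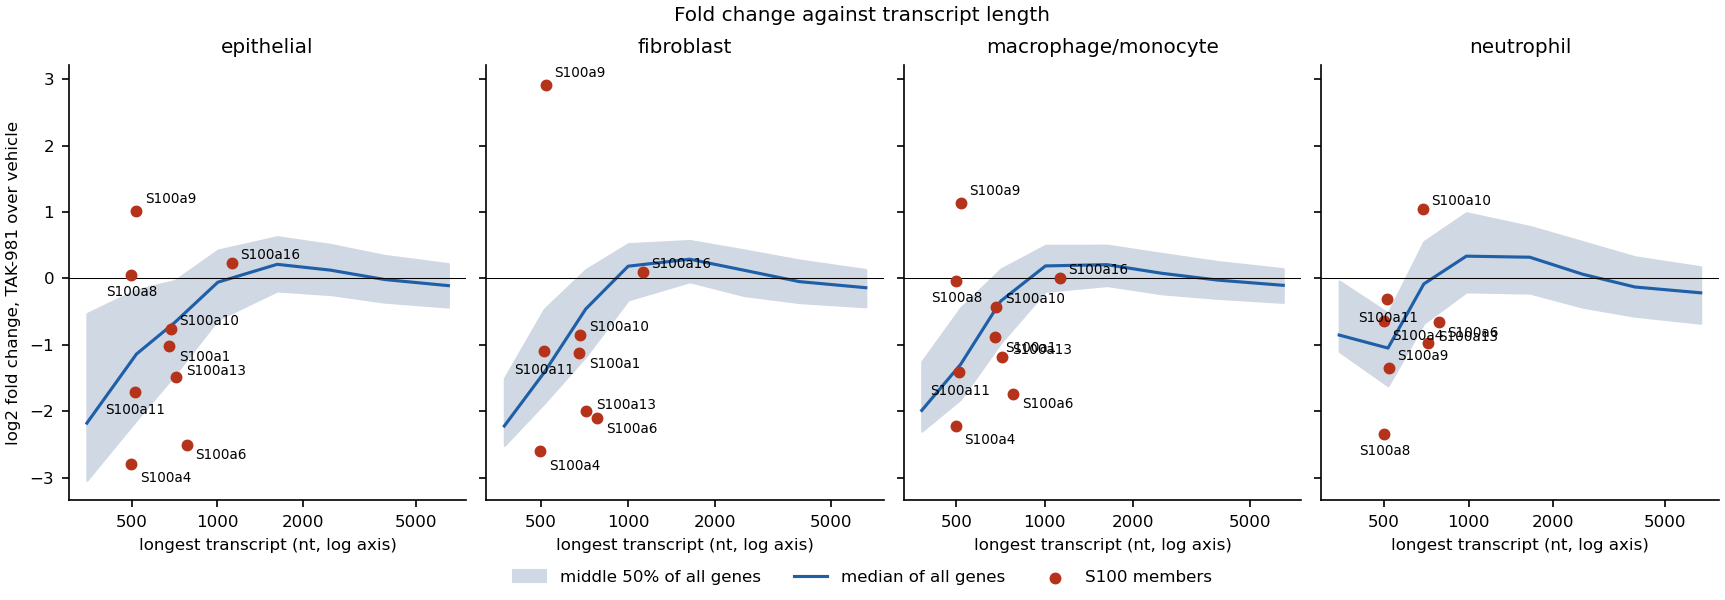
Log2 fold change (TAK-981 over vehicle) against the longest annotated transcript (nt, log axis) in 4 classes. The blue line is the median of all tested genes in 8 length bins, the band their middle 50%, and red points the S100 members. S100a4 and S100a6 lie below the band in epithelium, fibroblasts and macrophages, and S100a9 lies above it in those classes.

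Partners of the S100 proteins were read from lists of 8 annexin partners, 10 other intracellular partners and 7 receptors. In epithelium 0 of the 8, 9 and 6 genes tested from the 3 lists were called by edgeR, with 1, 1 and 3 at an unadjusted p under 0.05 and 1, 0 and 2 by DESeq2. Of all epithelial genes edgeR called 2.24% and DESeq2 10.1%, and the share at an unadjusted p under 0.05 is not given. The lists had median log2 fold changes of 0.21, -0.13 and 0.64, against 0.01 over all genes. Anxa2, the partner of S100a10, had 1258 and 1466 CPM in vehicle epithelium against 1093 and 1315 CPM under TAK-981, which overlapped. Ahnak, a giant scaffold protein that binds the S100a10 and annexin A2 complex, fell in dendritic cells from 341 and 513 CPM to 144 and 126 CPM (-1.61 ± 0.34 SE, edgeR adjusted p = 0.0346). The fall was not particular to that class. Without a call, Ahnak was also lower, with no overlap of libraries, in epithelial, macrophage, fibroblast, T or NK and endothelial cells. Its log2 fold changes there lay between -1.14 in macrophages and -0.59 in endothelial cells. In neutrophils the Ahnak values overlapped. Cd14, the co-receptor of TLR4, rose in fibroblasts, where vehicle had 18.0 and 19.1 CPM and TAK-981 67.7 and 73.0 CPM (1.91 ± 0.34 SE, edgeR adjusted p = 0.0374). It also rose in endothelial cells, where vehicle had 13.98 and 24.1 CPM and TAK-981 129 and 97.0 CPM (2.54 ± 0.49 SE, edgeR adjusted p = 0.0285). Cd14 is also a macrophage gene, and macrophage markers summed to 210 and 381 CPM in vehicle endothelial cells and 1621 and 1164 CPM under TAK-981. No other partner gene was called in the 7 classes. Of the other S100 family genes 8 were in the tables and 5 had enough epithelial counts. EdgeR called 0 of the 5, against 2.24% of genes, with 2 at an unadjusted p under 0.05. DESeq2 called 1 of them, against 10.1% of genes.

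The genes most like each member in level were found over 29 sums of a class in a library with at least 30 cells, from 10 groups of cells, as Pearson's r of log2 CPM. The sums share libraries and differ in depth, so r is a description. S100a8 and S100a9 followed each other (r = 0.951), and Csf3r, the receptor for granulocyte colony-stimulating factor, was close to both (0.896 and 0.908). For S100a10 the nearest were Fkbp3 (0.867), Serbp1 (0.829) and Ahnak (0.827). S100a6 went with S100a11 (0.873), and outside the family with Hcfc1r1 (0.817), Elob (0.815) and Eloc (0.798). S100a16 went with the stromal and vascular genes Adamts1 (0.947), Plpp3 (0.937) and Nid1 (0.936). Outside the family S100a1 was nearest to Palld (0.885), S100a13 to Naa38 (0.789), S100a11 to 1810058I24Rik (0.778) and S100a4 to Smarca5 (0.748).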

How the data were processed

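Per the labels' protocols, 4 tumours were dissociated, red cells were lysed and droplet-based 3′ libraries were made with 10x Genomics chemistry. Per the submitters' processing notes the authors used Cell Ranger 6.1.2 and mm10, and the deposited values are raw UMI counts per gene and barcode. Cells needed 500 UMIs, 250 genes and a mitochondrial share of no more than 20%, and the top Scrublet scores were removed at 0.8% per 1000 cells. Cells were clustered with scanpy 1.11.5 (2000 variable genes, 30 components, 15 neighbours, Leiden resolution 1.0, seed 0), leaving out 17 S100 genes, and clusters were named from fixed markers, since no protein was measured. Counts were summed per class and library, filtered and tested with edgeR 4.0.16 (TMM, quasi-likelihood F test, Benjamini-Hochberg over all genes of a class, threshold 0.05). CPM values use TMM-adjusted totals, except in clusters, where plain totals were used. P-values rest on n = 2 mice per group. DESeq2 1.42.0 was an alternative. Lengths are the longest transcript in GENCODE vM21, and the length trend was a loess fit (span 0.5) per library. The script was tested on simulated data. Whole-class fold change, SE and p are printed only for members called, or with libraries that did not overlap and a mean log2 CPM of at least 3. Not every member that met this rule is printed, so a missing value does not mean that its libraries overlapped. Levels are given for some of the others. The members and lists were chosen with earlier results of these data known.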

Additional observations from a re-analysis of the deposited data

How the results depend on the processing

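The number of members called changed with several choices, and so did the share of all genes called, given here in parentheses. In epithelium it was 4 (2.24%), against 6 with DESeq2 (10.1%), 6 with no filter on low counts (9.53%), 3 at 1000 UMIs per cell (2.01%) and 1 with the length trend removed (1.07%). In dendritic cells it was 2 (4.56%), against 4 with no filter (1.81%) and 1 with the length trend removed (3.62%). In fibroblasts it was 1 (1.01%), against 4 with DESeq2 (1.79%), 5 with no filter (2.45%), 0 with the length trend removed or with libraries thinned to the smallest (0%), and 2 at 1000 UMIs per cell (1.19%), at 10% mitochondrial UMIs (1.28%) or at Leiden resolution 2.0 (1.54%). Of the classes with 0 called, neutrophils (0.794%) had 1 with DESeq2 (1.42%) and 1 with thinned libraries (2.03%). Macrophages (0.131%) had 4 with DESeq2 (2.56%), 6 with no filter (4.32%) and 1 with thinned libraries (0.836%), and T or NK cells (0.318%) had 1 with no filter (1.04%) and 2 without doublet removal (1.35%). Endothelial cells (1.82%) had 3 with no filter (2.66%) and 1 at 1000 UMIs (2.17%) or at 10% mitochondrial UMIs (2.69%), and the whole tumour (0%) had 6 with DESeq2 (5.36%) or no filter (2.71%).

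Leaving out each library in turn gave 2 to 3 members in epithelium (0.975 to 3.74%), 2 to 5 in dendritic cells (4.77 to 6.02%), 1 to 3 in fibroblasts (0.822 to 2.83%), 0 to 2 in macrophages (0 to 0.891%) and 0 to 3 in endothelial cells (2.62 to 9.29%). A group then has 1 sample, which is assumed to vary like the other group.

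The replicate numbers in the labels give 2 pairs and name no shared cage or day, and deviations of same-numbered libraries correlated at -0.182 to 0.099. With the replicate block the count was 0 in dendritic cells (0.603%), 1 in T or NK cells (2.15%) and 4 in fibroblasts (1.77%), and it was the same as without the block in the other classes and the whole tumour. With the numbers crossed it was 3 in epithelium (2.72%), 4 in dendritic cells (8.38%), 3 in macrophages (2.06%) and 2 in endothelial cells (4.21%).

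Of 771 refits of the 46 fold changes that met the rule for printing, whether printed or not, 6 reversed the sign. They were S100a9 without doublet removal in macrophages (-0.42) and epithelium (-0.35) and in epithelial cluster 3 (-3.41), and, with the length trend removed, S100a10 (0.45) and S100a11 (0.25) in dendritic cells and S100a11 in endothelial cells (0.022). The neutrophil share of S100a8 UMIs differed by -47.8 percentage points, against -39.7 without doublet removal, -23.5 at 1000 UMIs per cell and -44.5 at 10% mitochondrial UMIs. That of S100a9 differed by -40.8, against -35.4 and -21.3 for the first 2 of these. The epithelial share differed by -2.21 for S100a6 and -1.47 for S100a4, and leaving out libraries in turn gave -6.33 to 1.92 and -11.5 to 8.54. The causes were not tested. Dendritic and whole-tumour counts at Leiden resolution 2.0 were not run.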
